A study of Mus musculus with 6 samples.

Results

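The piRNA clusters of 20 to 40 kb are 26 of the 773 mouse piRNA clusters counted in the deposited piRNA table, or 3.36% of them. They were chosen by width alone, as all clusters whose end minus start lies between 20000 and 40000 bp. Their widths ran from 20022 to 39010 bp with a median of 26006 bp, and together they cover 707754 bp, 8.02% of the length of all clusters. At the limits of the rule, the narrowest member (20022 bp, chromosome 13) had 2.25 (KO mean) and 2.63 (WT mean) counts for every 100 miRNA counts of its library, and the next narrower cluster (19996 bp, chromosome 17) had 0.315 and 0.210. The widest member (39010 bp, chromosome 10) had 18.9 and 35.3, and the next wider cluster (42873 bp, chromosome 15) had 25.1 and 52.6.

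Small RNAs of purified round spermatids, the haploid cells that follow meiosis, were sequenced from testes of C57BL/6 mice at postnatal day 21. Of 6 libraries, 3 came from males of a global Miwi knockout line (KO) and 3 from wild-type males (WT). Replicates carry the numbers 1 to 3 in the labels, which do not state whether they were separate animals, so the spread behind each p-value is that between libraries and may be technical. The study asked, among other questions, whether the pachytene piRNA profile is altered without MIWI.

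PIWI-interacting RNAs (piRNAs) are small RNAs of animal germ cells that guide PIWI proteins to complementary RNAs. Pachytene piRNAs appear during meiosis and are cut from long single-stranded transcripts of discrete genomic clusters, most of them outside protein-coding genes, and they typically begin with a uridine, written T here. In the mouse testis they are bound by MILI (PIWIL2), whose piRNAs are shorter, and by MIWI (PIWIL1), whose piRNAs are longer. Trimming of the 3′ end sets the final length, while the 5′ end is fixed before it. Counts of 25-28 nt, the length usual for MILI, and of 29-32 nt, the length usual for MIWI, are therefore given apart.

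Summed over the 26 clusters, the 3 KO libraries had 299666, 170384 and 301148 counts, and the 3 WT libraries had 638930, 696037 and 1046189. The libraries' miRNA totals, to which the counts were scaled, ran from 146487 to 246030. Values are given as counts per 100 miRNA counts of the same library. While the miRNA totals of the genotypes overlap, their depth does not. The deepest KO library reached 1785660 in the piRNA table and 1335013 in the deposited small RNA table, below the shallowest WT library (4059156 and 3114845). The second total was not split into piRNAs and other RNAs here, so it is no separate measure of depth. MiRNAs were therefore a larger part of every KO library than of any WT library, and this gap enters each scaled value. Whether miRNA levels per cell were equal between the genotypes was not tested. Of 8 marker miRNAs of other testis cells, 2 were lower and 1 was higher in KO without overlap; their summed level was between 2.52 and 2.92 per 100 miRNA counts in KO and between 3.06 and 4.07 in WT, and the erythroid marker miR-451a had 7 to 21 counts in any library. Of 3 germ cell miRNAs, 2 were higher in KO without overlap, and their sum was between 29.6 and 33.5 in KO and between 27.4 and 29.1 in WT. The part of these miRNAs in the values below was not tested, and fewer cells of a type and less RNA per cell cannot be told apart in such libraries. The replicate 3 libraries had the highest share of snoRNA counts in both genotypes, at 0.241% of both tables in KO and 0.186% in WT, against 0.0558% to 0.0825% in the other 4. Because only small RNAs were counted, the Miwi (Piwil1) mRNA could not serve as a check of the genotype labels.

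Single RNAs that share a 5′ end show how lengths differed between the genotypes. The sequences below give 1 such 5′ end in each of 8 clusters, read on the RNA's strand. They were taken from transcripts of GENCODE release M21 and promoters of RefSeq, both on build GRCm38, which cover only part of the clusters. Each was the 5′ end with the highest product of WT 29-32 nt and KO 25-28 nt counts in its cluster among those covered, a choice that favours ends with longer RNAs in WT, so their lengths are a description. They ranked between 13 and 137 among all 5′ ends of the 26 clusters by this product, since the first ones are not covered. Capitals mark the bases of the most frequent length in KO, lower case the further bases up to 30. Every one of the 8 begins with T.
chr5:114841883-114841912, minus strand: TCAGTTCTCTCTAAAGATGTAGTTGTCctg
chr6:128188321-128188350, minus strand: TACCAATTGAGCTATATCCCAACCTCCatt
chr14:44779716-44779745, minus strand: TGATGCTTTCTTTATTCATTATACCTGCtg
chr15:83356372-83356401, minus strand: TATACAAGCATATCGCTCCTTTCCAGTtag
chr3:124412465-124412494, minus strand: TGACAATGTGTGTATAACCCCATCCCCatc
chr10:85765199-85765228, plus strand: TGAGTATATAGTTCACATATCATAACCCac
chr10:75860429-75860458, plus strand: TAGATAGTGAGGACTTGACTCTAGTGAtta
chr10:86571906-86571935, minus strand: TGACAGATCCTAGTAATTGCCTGAATatat

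At the chr5 end, which lies in Gm13821, a transcript of undetermined class, the most frequent length was 27 nt in KO and 31 nt in WT. Its 29-32 nt RNAs were at 0.0162, 0.0177 and 0.0246 per 100 miRNA counts in KO and 2.24, 1.82 and 2.91 in WT. Its 25-28 nt RNAs were at 0.0290, 0.0273 and 0.0295 in KO and 0.0562, 0.0459 and 0.0597 in WT, so both classes were lower in every KO library and the long class by far more. At the chr15 end, in an exon of the noncoding RNA gene 1700001L05Rik, the most frequent length was 27 nt in KO and 29 nt in WT. There the 25-28 nt RNAs were higher in every KO library, at 0.123, 0.117 and 0.101 against 0.0662, 0.0541 and 0.0715 in WT, while the 29-32 nt RNAs were at most 0.00657 in KO and at least 0.194 in WT. At chr10:86571906-86571935 the most frequent lengths were 26 nt in KO and 27 nt in WT, where RNAs of 25-28 nt (0.191, 0.210 and 0.209) and of 29-32 nt (0.196, 0.202 and 0.199) were about as abundant. The remaining 5 ends had most frequent lengths of 27 or 28 nt in KO and 29, 30 or 31 nt in WT. Over the 8 ends, the 25-28 nt RNAs were lower in every KO library than in any WT library at 4, higher at 2 and overlapping at 2.

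Small RNAs of the 26 clusters were fewer and shorter in KO. For every 100 miRNA counts, their sum was 127.7, 116.3 and 123.6 in the KO libraries and 355.4, 355.1 and 425.2 in the WT libraries. The group means, 122.5 ± 5.75 and 378.6 ± 40.4 (SD, n = 3), differ 3.09-fold with no overlap (exact permutation test, two-sided, p = 0.1, the smallest that 3 against 3 libraries can give). Scaled to the total of the piRNA table in place of miRNAs, the same sum was not lower in KO, with a log2 ratio of 0.0924 against -1.63, so the level statements here all hold relative to miRNAs. RNAs of 29-32 nt made up 22.1%, 22.1% and 23.9% of the 25-32 nt counts in the KO libraries and 81.6%, 81.2% and 82.2% in the WT libraries. This share, which needs no scaling between libraries, was 22.7% ± 1.06 and 81.7% ± 0.514 (SD, n = 3; exact permutation p = 0.1).

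By length class, long RNAs were lower and short RNAs higher in KO, each without overlap of the libraries. Relative to 100 miRNA counts, KO had 25.1 ± 1.91 and WT 292.6 ± 32.9 counts of 29-32 nt. RNAs of 25-28 nt had 85.3 ± 4.07 in KO and 65.5 ± 5.18 in WT, and every KO library was above every WT library. RNAs of 33-34 nt had 0.488 ± 0.0794 and 8.74 ± 1.76, and RNAs of 18-24 nt had 11.6 ± 0.631 and 11.7 ± 0.713 with overlapping libraries. By single length, 27 nt made up 23.9% of all counts of the clusters in KO and 5.00% in WT, and 30 nt made up 6.19% and 29.8%.

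**Figure D1:**
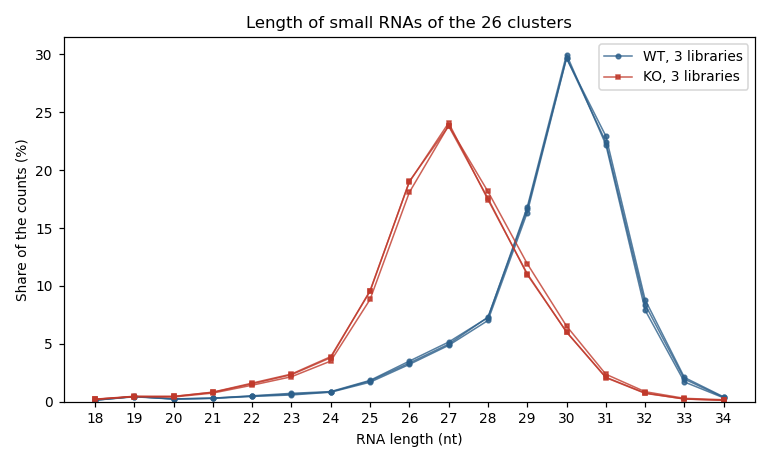
Share of the counts of the 26 clusters (vertical axis, %) at each RNA length (horizontal axis, nt); each line is 1 library, 3 KO and 3 WT. The 3 KO lines peak at 27 nt and the 3 WT lines at 30 nt, and lines of 1 genotype nearly coincide.

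Called cluster by cluster, 22 of the 26 fell and 1 rose over all lengths in KO (edgeR quasi-likelihood test, Benjamini-Hochberg adjusted p under 0.05 over all 764 clusters tested). Over those 764 clusters 65.2% fell and 2.75% rose. All 26 passed the filter on low counts in each test. The members' median log2 change was -1.42, beside -0.67 over all clusters tested and -0.79 over the 534 with at least 50 counts in 3 libraries. The split depends on the scale: with TMM factors over the clusters 20 fell and 4 rose, and with the piRNA table total 12 fell and 14 rose, while the median over all clusters moved to 0.01 and 1.06. The members' median stayed below that of all clusters under both, at -0.75 and 0.30. Without overlap between the libraries 23 clusters were lower in KO and 1 higher, against 67.7% and 2.88% of all clusters tested.

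Of the 26 clusters, 24 fell and none rose in 29-32 nt RNAs (85.7% and 0.565% of 531 clusters tested), with a median log2 change of -3.28 beside -2.09 over all. Over the 260 clusters with at least 50 such counts in 3 libraries the median was -3.22. The deeper median of the 26 was thus not particular to them among clusters with more counts. At an unadjusted p under 0.05 the edgeR count of rises was also 0, as it was with DESeq2 on the miRNA totals. In 25-28 nt RNAs 10 fell and 12 rose (28.3% and 7.67% of 743), with medians of -0.01 and -0.27. With the piRNA table total as the scale 0 fell and 26 rose. On that scale the median was 1.70 for the 26 and 1.45 over all 746 clusters tested, so rises were not particular to the 26. The ratio of 29-32 to 25-28 nt counts, tested within libraries as a class by genotype interaction, fell in 24 clusters and rose in 0 (62.0% and 0.268% of 747; 0 rises also at an unadjusted p under 0.05). Its median log2 change was -3.74, beside -1.35 over all clusters tested, and the ratio was not fitted with the limit of 50 counts. Of the 24 clusters that lost long RNAs, 11 gained short ones, 10 lost both and 3 had no call for the short class. This joint split was not counted over all clusters, so whether it is usual cannot be told. With short limits of 24-27 or 26-27 nt, 5 of the 26 fell in the short class.

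**Figure D2:**
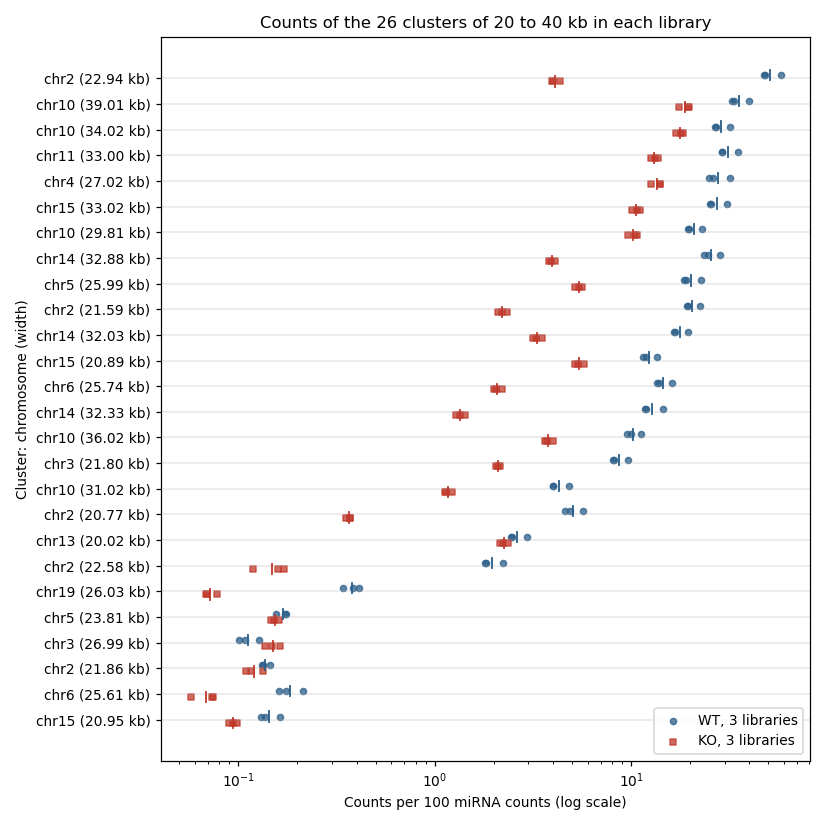
Counts per 100 miRNA counts (horizontal axis, log scale) of the 26 clusters, ordered by total counts; each point is 1 library, circles WT and squares KO, and the short vertical lines are means. In the 24 clusters apart from chr5 (23.81 kb) and chr2 (21.86 kb) the KO and WT points do not overlap, and in chr3 (26.99 kb) the KO points lie above the WT points.

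The clusters span a wide range of abundance. The lowest had 1490 counts over the 6 libraries and the highest 346833; 20 had over 10000 and 6 had under 10000. By mean scaled counts over the libraries, 15 of them rank between 16 and 37 among all 773 clusters, below the clusters that dominate the table. They lie on 11 chromosomes, 5 each on chromosomes 10 and 2 and 3 each on chromosomes 14 and 15. In 20 clusters under 5.5% of the counts came from the lesser strand. In 12 clusters at least 80% of the counts lay outside genes annotated in GENCODE M21, in 4 at least 50% lay in exons of the same strand, in 4 in introns of the same strand, and in 2 opposite to annotated genes, mostly pseudogenes.

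Among the clusters outside genes, the highest of all was a 22.94-kb cluster on the plus strand of chromosome 2 (chr2:151139086-151162029), all of whose counts lay outside annotated genes. It had counts per 100 miRNA counts of 4.34, 3.95 and 3.99 in KO and 47.6, 47.7 and 57.7 in WT. The KO libraries were 12.5-fold lower by the fit, with no overlap (log2 change -3.64 ± 0.12 (SE), edgeR adjusted p = 6.7e-168). Its 29-32 nt RNAs were at 1.12, 0.973 and 1.05 in KO and 39.9, 40.4 and 48.6 in WT, 41.1-fold lower. Its 25-28 nt RNAs fell too, by a log2 change of -1.04 ± 0.09 (adjusted p = 1.1e-27), so this cluster lost both classes. The cluster ranked 15 among all clusters in WT and 31 in KO.

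Another 3 of the 26 clusters follow within about the same region of chromosome 2, at chr2:151245426-151267020 on the minus strand, chr2:151315256-151336029 on the plus strand and chr2:151398016-151420600 on the minus strand. The last lies with 98.7% of its counts in introns of the noncoding RNA gene Gm14152; Gm14144 and 4930442J19Rik, both noncoding, overlap the edges of the others. The 4 clusters together had counts per 100 miRNA counts of 7.20, 6.65 and 6.61 in KO and 73.5, 73.7 and 87.9 in WT, 11.5-fold lower in KO by the means. They gave 20.7% ± 0.0426 of the counts of the 26 clusters in WT and 5.57% ± 0.194 in KO. All 4 fell in both length classes, with log2 changes between -5.36 and -5.09 for 29-32 nt and between -1.04 and -0.57 for 25-28 nt. The short-class fall of 2 of the 4 depended on the length limits. With 24-27 nt the change was 0.0300 at chr2:151245426-151267020 and -0.170 at chr2:151315256-151336029, neither called. In WT their share of 29-32 nt was between 87.8% and 92.9%, and in KO between 24.03% and 33.9%. The grouping by place was made after these values were seen, so it is a description. Their fall over all lengths held with the piRNA table total as the scale, at a log2 change of -1.92, -1.48, -2.07 and -1.97 in the order named, but the fall of the 25-28 nt class turned into a rise on that scale.

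The next clusters by counts fell less. The 39.01-kb cluster of chromosome 10 (chr10:75833011-75872021, plus strand) holds Gstt2, a glutathione transferase gene, and Mif, a cytokine gene, both on the other strand, and 97.3% of its counts lay outside them. It had counts per 100 miRNA counts of 19.5, 17.6 and 19.6 in KO and 33.5, 32.4 and 39.95 in WT, 1.87-fold lower in KO (log2 change -0.90 ± 0.11, adjusted p = 3.8e-15). Its 25-28 nt RNAs rose from 8.73 ± 0.735 to 12.7 ± 0.804 (adjusted p = 1.5e-08) while those of 29-32 nt fell 6.10-fold. In KO it was the most abundant of the 26 clusters, ranked 11 among all clusters, against rank 17 in WT. On the scale of the piRNA table total its change over all lengths was a rise, with a log2 change of 0.82.

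The 34.02-kb cluster of chromosome 10 (chr10:85740002-85774027, plus strand), which runs opposite to 5 annotated processed pseudogenes, had the highest rise of short RNAs. Its 25-28 nt RNAs were at 13.2, 12.1 and 12.5 in KO and 4.21, 4.43 and 4.84 in WT. Every KO library was over every WT library, with a log2 change of 1.49 ± 0.09 (adjusted p = 6.0e-56). Its 29-32 nt RNAs were at 3.91, 3.48 and 4.26 in KO and 21.3, 21.4 and 25.3 in WT, and the share of 29-32 nt was 23.5% ± 1.68 in KO and 83.4% ± 0.536 in WT. Over all lengths it fell 1.61-fold (log2 change -0.69 ± 0.11); with TMM factors over the clusters this was -0.02 and no longer called, and with the piRNA table total it was a rise of 1.03.

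The 32997-bp cluster of chromosome 11 (chr11:103420011-103453008, plus strand) reaches into Lrrc37a on the other strand, with almost all of its counts outside genes. It was at 13.7, 12.6 and 13.1 in KO and 28.9, 28.9 and 35.1 in WT. The 33.02-kb cluster of chromosome 15 (chr15:78642001-78675022, minus strand), which overlaps the 3′ part of Elfn2, was at 11.1, 10.1 and 10.7 in KO and 25.6, 25.2 and 30.9 in WT. The 29.81-kb cluster of chromosome 10 (chr10:66680002-66709815, minus strand) was at 10.7, 9.69 and 10.4 in KO and 19.5, 19.8 and 23.01 in WT. These 3 fell 2.36-, 2.56- and 2.02-fold without overlap, and all 3 gained 25-28 nt RNAs, with log2 changes of 0.56, 0.34 and 0.63. With the piRNA table total as the scale their changes over all lengths were rises of 0.49, 0.36 and 0.70.

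The 3 clusters of chromosome 14, all on the minus strand, fell more and lost short RNAs too. They lie at chr14:44759007-44791890, chr14:19624001-19656027 and chr14:24339002-24371335. The first was at 4.12, 3.81 and 3.91 in KO and 23.6, 24.6 and 28.2 in WT, and 57.9% of its counts lay opposite to annotated genes, among them the pseudogene Gm17187, where one of the printed sequences lies. The second was at 3.51, 3.18 and 3.26 in KO and 16.8, 16.6 and 19.6 in WT. The third was at 1.43, 1.28 and 1.34 in KO and 11.97, 11.8 and 14.5 in WT, and 12.8% of its counts came from 1 place (1 position, strand and length). No KO library reached the level of any WT library in these clusters, and the fitted falls were 6.45-, 5.32- and 9.44-fold. Their 25-28 nt RNAs changed by -0.36, -0.36 and -0.92 (log2), all called; with limits of 24-27 nt the first of these was 0.0871 and the second -0.0683, neither called.

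The 25.99-kb cluster of chromosome 5 (chr5:114831028-114857014, minus strand), which holds the first printed sequence, was at 5.63, 5.17 and 5.44 in KO and 18.98, 18.6 and 22.6 in WT, 3.71-fold lower in KO. Its short RNAs rose by a log2 change of 0.29 ± 0.09 (adjusted p = 0.00615), a call lost without KO replicate 3 (0.28) or WT replicate 2 (0.25). The 25.74-kb cluster of chromosome 6 (chr6:128179025-128204765, minus strand), with 59.9% of its counts in exons of noncoding genes such as Gm10010, was at 2.19, 2.00 and 2.06 in KO and 13.6, 13.8 and 16.2 in WT. It fell 6.99-fold over all lengths and 30.9-fold in 29-32 nt RNAs, and its ratio of long to short RNAs fell by -4.48 on the log2 scale, one of the 3 deepest falls of the ratio with the 21.59-kb and 20.77-kb clusters of chromosome 2 (-4.51 and -4.71).

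**Figure D3:**
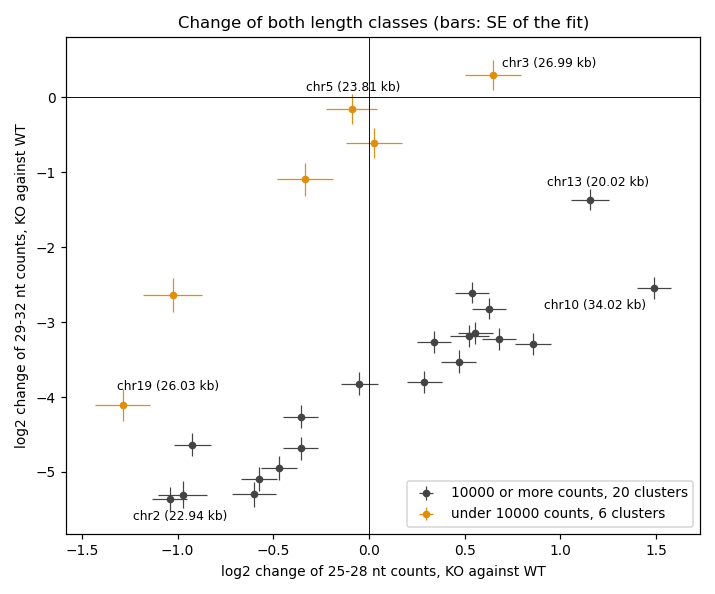
Change of 29-32 nt counts (vertical axis) against change of 25-28 nt counts (horizontal axis), both as log2 KO against WT relative to miRNA totals; each point is 1 cluster and the bars are SEs of the edgeR fit. The 20 clusters with over 10000 counts lie below 0 for the long class, on both sides of 0 for the short class, and the clusters with the deepest loss of long RNAs lie at the left.

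Clusters with a deeper fall of long RNAs had lower changes of short ones. Across the 20 clusters with over 10000 counts, the log2 changes of both classes had Pearson r = 0.93 and Spearman rho = 0.93, and across all 26 they had 0.50 and 0.62. Both changes of a cluster share its libraries and the miRNA totals, and clusters are not independent replicates, so this is a description. The share of 29-32 nt in WT and the log2 change over all lengths had r = -0.70 and rho = -0.84 across the 26, and r = -0.74 and rho = -0.68 across the 764 clusters tested, with WT counts in both measures. The order of abundance was largely kept, with r = 0.91 between the log2 levels of KO and WT.

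Some of the clusters lie within annotated genes. The 27.02-kb cluster of chromosome 4 (chr4:62216001-62243018, minus strand) has 96.5% of its counts in an intron of Zfp37, a zinc finger protein gene, on the gene's own strand. It was at 14.03, 12.6 and 13.9 in KO and 26.1, 25.01 and 32.03 in WT, 2.05-fold lower in KO, while its 25-28 nt RNAs rose by a log2 change of 0.68 ± 0.09. Its share of 29-32 nt was 17.8% ± 1.11 in KO and 76.3% ± 1.05 in WT. The 20.89-kb cluster of chromosome 15 (chr15:83349097-83369988, minus strand) has 93.5% of its counts in exons of the noncoding gene 1700001L05Rik, and was at 5.73, 5.17 and 5.39 in KO and 11.5, 11.9 and 13.5 in WT. Its KO share of 29-32 nt, 16.7% ± 1.25, was the lowest of the 26 clusters, and its short RNAs rose by 0.47 ± 0.09. The 21.80-kb cluster of chromosome 3 (chr3:124398138-124419933, minus strand) has 93.1% of its counts in exons of 1700006A11Rik, annotated as protein-coding, and 76.7% in its coding sequence. It was at 2.15, 2.04 and 2.11 in KO and 8.08, 8.22 and 9.66 in WT, 4.12-fold lower, and its 25-28 nt change of -0.05 ± 0.10 was not called (adjusted p = 0.713). With the piRNA table total as the scale the first and second of these 3 rose over all lengths, by 0.69 and 0.54.

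The 20.02-kb cluster of chromosome 13 (chr13:50298001-50318023) was the one with over 10000 counts that had no call over all lengths. It was at 2.37, 2.15 and 2.22 in KO and 2.44, 2.48 and 2.95 in WT, with a log2 change of -0.22 ± 0.12 (adjusted p = 0.0771). This turned into a called rise with TMM factors over the clusters (0.45), the piRNA table total (1.496) or the size factors of DESeq2 (0.50), and into a called fall with 1 entry per place (-0.24, adjusted p = 0.0432). Its classes moved in opposite directions: 25-28 nt RNAs rose by 1.15 ± 0.10 and 29-32 nt RNAs fell by -1.37 on the log2 scale, but with TMM factors over the clusters or the piRNA table total the long class rose too (1.08 and 0.35). It gave 16.7% of its counts from the lesser strand, more than any other cluster with over 10000 counts, and its ratio of long to short RNAs fell least among these 20, by -2.52. A cluster of 8026 bp on the same strand ends 0.970 kb before it, and a cluster on the opposite strand starts 190.1 kb after it.

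Among the 6 clusters with under 10000 counts, each of which overlaps protein-coding genes, the pattern was mixed. Together they gave 0.537% ± 0.0193 of the counts of the 26 clusters in KO and 0.297% ± 0.00852 in WT. Their share of 29-32 nt in WT, 44.3% ± 0.655, was lower than the 81.8% ± 0.511 of the other 20. Of these 6, 3 fell, 1 rose and 2 had no call over all lengths, and 4 fell in 29-32 nt RNAs. In 4 of them the most frequent length in WT was 27 nt and in 1 it was 28 nt, whereas it was 30 nt in the remaining 21 of the 26; in KO it was 27 nt in 24 clusters and 26 nt in 2.

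The 26.03-kb cluster of chromosome 19 (chr19:4776003-4802029, minus strand), over Rbm4 and Rbm14, genes of RNA-binding proteins, had 77.6% of its counts in introns. It had counts per 100 miRNA counts of 0.0780, 0.0689 and 0.0681 in KO and 0.343, 0.382 and 0.411 in WT and fell 5.27-fold, with a fall in both length classes. It was the one of the 6 with a most frequent length of 30 nt in WT. The 25.61-kb cluster of chromosome 6 (chr6:115803420-115829030), which spans the ribosomal protein gene Rpl32 and Efcab12 with 42.6% of its counts opposite to genes and 24.6% on the lesser strand, was at 0.0745, 0.0573 and 0.0739 in KO and 0.175, 0.161 and 0.215 in WT and fell 2.65-fold. The 20.95-kb cluster of chromosome 15 (chr15:102277013-102297965) fell by -0.616 on the log2 scale (adjusted p = 4.0e-05). This cluster contains the transporter gene Mfsd5 and overlaps the start of Espl1, which codes for separase, but 89.8% of its counts lay outside genes. The last 2 rose over all lengths on the scale of the piRNA table total (0.32 and 1.10).

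The other 3 changed little or rose. The 26.99-kb cluster of chromosome 3 (chr3:51224002-51250994) coincides with Noct, which codes for nocturnin, and gave 38.0% of its counts from the lesser strand, the highest of the 26. It was at 0.164, 0.137 and 0.149 in KO and 0.101, 0.108 and 0.127 in WT. Every KO library was above every WT library, and the rise of 0.42 ± 0.14 was called (adjusted p = 0.00501) but lost without KO replicate 1 (0.35, adjusted p = 0.052). The 23.81-kb cluster of chromosome 5 (chr5:67378098-67401910) has 71.7% of its counts in an untranslated region of Bend4. It was at 0.152, 0.161 and 0.146 in KO and 0.155, 0.174 and 0.176 in WT with overlap, and its 29-32 nt share was 20.9% ± 0.983 in KO and 21.3% ± 3.84 in WT, with no call in any of the 4 tests (log2 ratio change -0.06 ± 0.18, adjusted p = 0.764). The 21.86-kb cluster of chromosome 2 (chr2:156195161-156217024) has 83.2% of its counts in introns of Phf20, a chromatin reader gene, and was at 0.133, 0.117 and 0.110 in KO and 0.132, 0.133 and 0.145 in WT with overlap. Its ratio of long to short RNAs fell by -0.616 (adjusted p = 0.00262), a call lost without KO replicate 2 (-0.42). Relative to the other clusters all 3 rose, with log2 changes of 1.09, 0.53 and 0.48 with TMM factors over the clusters.

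The 5′ ends of the short RNAs of KO were mostly ends that carried long RNAs in WT. Of the 25-28 nt counts of the 26 clusters, 90.4%, 90.4% and 90.5% in KO replicates 1 to 3 had a 5′ end with at least 1 count of 29-32 nt in WT, and 75.7% ± 0.214 with at least 10. The same share for 3′ ends was 62.5% ± 0.113 with at least 1 count and 34.9% ± 0.120 with at least 10. The WT counts were pooled over 3 libraries, and the share that dense coverage alone would give was not tested. At 928 5′ ends with at least 100 counts in each genotype, held by 18 of the 26 clusters, the most frequent length was greater in WT at 731, equal at 182 and greater in KO at 15, and the median difference was 3 nt. WT was longer at most ends in each of the 15 clusters with 10 or more such ends. Among 517 3′ ends with as many counts, WT was longer at 160, equal at 348 and shorter at 9. Ends within a cluster share its libraries and are not replicates, so these are descriptions. The same ends were not the most abundant in both genotypes: of the highest 100 5′ ends, any KO and any WT library shared 33 to 35, while libraries of 1 genotype shared 84 to 93.

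**Figure D4:**
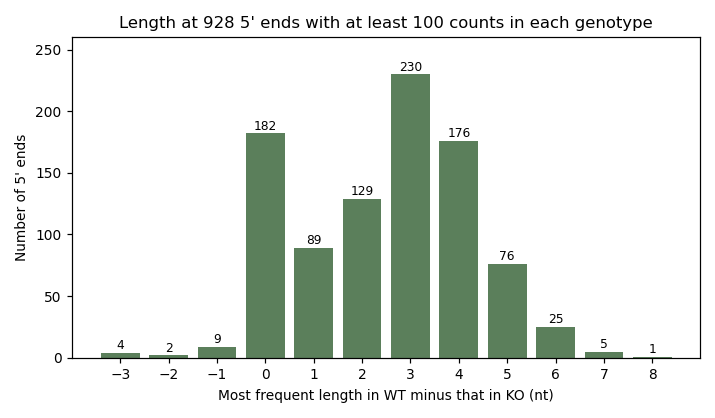
Number of 5′ ends (vertical axis) by the most frequent length in WT minus that in KO (horizontal axis, nt), for the 928 5′ ends with at least 100 counts in each genotype, pooled over 3 libraries each. The highest bar is at 3 nt with 230 ends, and 182 ends had no difference.

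At the highest 29-32 nt place of WT in the 22.94-kb cluster of chromosome 2, a 30-nt RNA at chr2:151152706-151152735 on the plus strand, the KO libraries had 1, 1 and 3 counts and the WT libraries 2357, 3674 and 4548. At the highest 25-28 nt place of the 34.02-kb cluster of chromosome 10, the 26-nt RNA at chr10:85761231-85761256, the KO libraries had 406, 251 and 537 counts and the WT libraries 7, 4 and 3. These 2 places were picked after the values were seen. Each highest place was picked by its level in 1 genotype, a choice that favours a lower level in the other, so the values are a description. Among the 6 clusters with the most counts, the highest long WT place was lower in KO in all 6. The highest short KO place was higher in KO in 5, from 2.23-fold to 78.9-fold, while that of the 22.94-kb cluster of chromosome 2 was lower, at 82, 35 and 66 counts in the KO libraries and 194, 164 and 173 in the WT libraries. Neither sequence was covered by the reference used here.

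The first base was read where the reference covers it, which is 12.1% of the counts of the 26 clusters in KO and 15.7% in WT. T was the first base in 83.8%, 84.4% and 82.4% of these in KO and 85.7%, 86.7% and 85.3% in WT, with no overlap (means 83.6% ± 1.02 and 85.9% ± 0.701; exact permutation p = 0.1); the difference of -2.33 percentage points was 3.43 when clusters of 15000 to 45000 bp were taken. One base before or after the 5′ end T made up 13.5% to 28.1% by the group means. Among 25-28 nt RNAs T was first in 85.4% ± 1.23 in KO and 85.0% ± 0.948 in WT with overlap, and among 29-32 nt RNAs in 78.3% ± 0.273 and 86.3% ± 0.704. A at base 10, the mark of piRNAs made by cutting a partner RNA, was at 27.04% ± 0.313 and 27.3% ± 0.266 with overlap. The lesser strand gave 2.12% ± 0.0112 of the counts of the 26 clusters in KO and 1.17% ± 0.0496 in WT, without overlap (exact permutation p = 0.1).

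Positions along the clusters were compared in bins of 1 kb from the 5′ edge of the main strand. The profiles of KO and WT had correlations across bins from 0.37 to 0.99 with a median of 0.89, and the highest bin was the same in both genotypes in 12 of the 26 clusters. The share of counts in the 5′ part, up to the middle of the cluster, was higher in KO without overlap in 11 of the 26 clusters. It was lower in 11 and overlapping in 4, so no direction prevailed. Among the 20 clusters with over 10000 counts, this share differed by over 10 percentage points between the means in 8, in 7 of them higher in KO. Neither count was made over all clusters, so whether they are usual cannot be told. The widest differences, picked after the values were seen, were in a pair of clusters on chromosome 10 that point away from each other with 1.97 kb between them, chr10:86560003-86596028 on the minus strand and chr10:86598001-86629022 on the plus strand. In the first, the share in the 5′ part was 58.6, 57.9 and 58.5 in KO and 24.98, 25.3 and 26.1 in WT percent. In the second it was 31.8, 29.7 and 33.05 in KO and 8.05, 7.56 and 7.40 in WT percent. In both clusters every KO library had a larger share of its counts in the 5′ part, which faces the other cluster, than any WT library. The 20.77-kb cluster of chromosome 2 went the other way, with 56.8, 60.4 and 56.1 in KO and 82.3, 80.3 and 82.2 in WT percent.

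**Figure D5:**
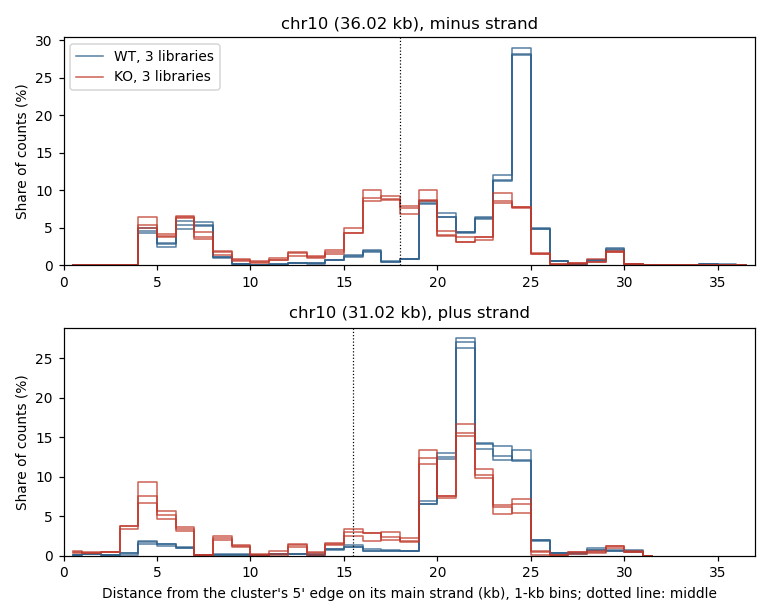
Share of the counts of the main strand (vertical axis, %) in bins of 1 kb by distance from the 5′ edge (horizontal axis, kb) in the 36.02-kb (top) and 31.02-kb (bottom) clusters of chromosome 10; each line is 1 library and the dotted line is the middle of the cluster. In the upper cluster the WT libraries have their highest bin at 24 kb, with a mean of 28.4% of the counts, where the KO libraries are lower.

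Both clusters of this pair were lower in KO and gained short RNAs. The 36.02-kb cluster had counts per 100 miRNA counts of 4.01, 3.73 and 3.64 in KO and 9.57, 9.94 and 11.2 in WT, a 2.70-fold fall, with a rise of 25-28 nt RNAs by a log2 change of 0.86 ± 0.09. The 31.02-kb cluster was at 1.22, 1.13 and 1.14 in KO and 3.99, 3.99 and 4.85 in WT, a 3.67-fold fall, with a rise of 0.52 ± 0.10. Its KO share of 29-32 nt, 35.6% ± 1.88, was the highest of the 26. With the piRNA table total as the scale the 36.02-kb cluster rose over all lengths, by 0.29, and the 31.02-kb cluster did not (-0.15). Both lie over rows of processed pseudogenes, with 51.4% and 24.6% of their counts opposite to them.

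Set beside clusters of other widths, the 26 clusters gave a slightly larger share of all cluster counts in KO. It was 16.9%, 16.9% and 16.9% in KO and 15.7%, 16.0% and 15.8% in WT, with no overlap (means 16.88% ± 0.0238 and 15.83% ± 0.117, a difference of 1.05 percentage points, exact permutation p = 0.1). Without the 22.94-kb cluster of chromosome 2 the difference was 2.62 points. The 19 clusters of over 40 kb gave 68.5% ± 0.231 in WT and 65.2% ± 0.264 in KO, the 619 of 7 to under 20 kb gave 15.2% ± 0.105 and 17.0% ± 0.237, and the 109 of under 7 kb gave 0.473% ± 0.0136 and 0.944% ± 0.0253. The share of 29-32 nt in these classes was 81.1%, 78.5% and 62.3% in WT and 21.6%, 23.8% and 22.3% in KO, beside 81.7% and 22.7% in the clusters of 20 to 40 kb. The differences between width classes in this share were not tested. The lesser strand gave 19.4%, 3.16% and 11.05% of the counts of these classes in WT and 26.4%, 5.98% and 11.6% in KO, beside 1.17% and 2.12% in the clusters of 20 to 40 kb.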

How the data were processed

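Small RNAs of 3 Miwi KO and 3 WT round spermatid libraries were analysed from 2 deposited tables of counts, whole reads per reference sequence and library that the authors made with featureCounts v1.5.0-p2, per the file headers. Cutadapt, DESeq2 and build mm9 are listed in the submitters' processing notes. Which aligner was used, and how reads with several matches were counted, is not given in the sources used here. In the table of piRNAs, 9924085 entries are named by position, strand and cluster, of which 1155870 lie in the 26 clusters and 349044 of these had a count. RNA length was taken as the indexed length minus 20, as 249 of 249 tRNA entries bear out. Entries at 1 place (position, strand and length) were summed; 52630 of 244298 counted places of the 26 clusters had 2 or more counted entries and held 69.0% of their counts, so the split among such entries is uncertain. Entries whose strand field reads FLANK were left out of strand shares. The first base read from GRCm38 sequences was T in 83.6% (KO) and 85.9% (WT) of the covered counts, and T was far rarer 1 base to either side, so coordinates are given as GRCm38 although the notes name mm9; genes are those of GENCODE M21.

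Counts summed per cluster were tested over all clusters with the quasi-likelihood test of edgeR 4.0.16 under R 4.3.3 (library size set to the miRNA total of the small RNA table, no TMM factors, low counts removed by filterByExpr at its minimum count of 10 and minimum total of 15, Benjamini-Hochberg adjustment, threshold 0.05, two-sided, no block). The ratio of length classes was tested as a class by genotype interaction with the library as a block. Sums over the 26 clusters were compared with exact permutation tests in scipy 1.17.1, for which 0.1 is the smallest p. The tests were checked on simulated data. Depth was 1009902 to 6623310 counts per library in the piRNA table. Precision is given as SD over libraries and as SE of the fit. Libraries of 1 genotype differed by more than sampling noise (chi-square per degree of freedom from 1.58 to 7.28), so none was counted as a duplicate. The clusters, the lists and the tests were chosen with earlier results of these data known. Named clusters are the 10 with the highest mean level, the 6 with the lowest and the 6 with the highest change, those with the highest short-RNA change and the most and least changed ratio (3 each), and the 4 with the largest share on the lesser strand; the others are named because the report accounts for all 26. Alternatives were other scalings, DESeq2 1.42.0, other filters, length limits and widths, the replicate block, leaving out libraries or the highest cluster, and counting 1 entry per place.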

Additional observations from a re-analysis of the deposited data

How the results depend on the processing

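Scaling was the choice that mattered most. Scaled to the piRNA table total, the log2 ratio of the sum over the 26 clusters was 0.0924 in place of -1.63. With it as the library size, 12 clusters fell and 14 rose over all lengths, 5 rose in 29-32 nt RNAs, and 0 fell and 26 rose in 25-28 nt RNAs. The medians over all clusters tested on that scale were 1.06 over all lengths, -0.41 for 29-32 nt and 1.45 for 25-28 nt. Called falls that turned into rises there were, over all lengths, 0.82, 1.03, 0.49, 0.69, 0.36, 0.70, 0.54, 0.29, 0.32 and 1.10 (log2), for 25-28 nt 0.68, 1.36, 1.14, 1.36, 1.25, 0.80, 1.11, 0.75, 0.43 and 0.70, and for 29-32 nt 0.35, 1.11 and 0.62. The 3 clusters with no call over all lengths became called rises there, of 1.496, 1.57 and 1.53, and so did the 29-32 nt change of the 23.81-kb cluster of chromosome 5, at 1.56. With TMM factors over the clusters 4 clusters rose over all lengths and 5 in 29-32 nt, with reversals to 0.0505 (all lengths), 1.08, 1.84 and 1.34 (29-32 nt). With the size factors of DESeq2 4 and 5 rose, with reversals to 0.0314 and 0.11 (all lengths) and 0.41, 1.15 and 0.68 (29-32 nt). With TMM factors of the miRNAs 1 rose in 29-32 nt. The edgeR alternatives differ from the main analysis in the scale and, through it, in which clusters pass the filter. The run with the size factors of DESeq2 also differs in the test and in having no such filter. The falls of the ratio of length classes do not use the scale.

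Length limits of 24-27 or 26-27 nt left 5 short-RNA falls in place of 10, and the cause was not tested. The 32.88-kb cluster of chromosome 14 reversed to 0.0871 and 0.11 with these limits. The 21.59-kb cluster of chromosome 2 reversed to 0.0300 and 0.0836, and none of these values was called. Clusters of 25000 to 35000 bp, the sum without the highest cluster and 1 entry per place gave log2 ratios of -1.48, -1.47 and -1.48. The share of 29-32 nt differed by -57.8 points with 1 entry per place, -47.8 as a mean over clusters, -60.7 against 24-27 nt and -57.6 for 29-31 against 26-27 nt. The share of all cluster counts differed by 2.11 and 1.77 points for 15000 to 45000 and 25000 to 35000 bp, 2.62 without the highest cluster and 1.27 without entries in annotated miRNA genes. That of the lesser strand differed by 0.873 and 0.509 points for those widths, 0.854 without the highest cluster and 1.39 as a mean over clusters. T at the first base differed by 3.43 points for 15000 to 45000 bp, a reversal, and by -0.913 as a mean over clusters. The share of short KO counts with a WT long 5′ end was 75.7% with at least 10 counts, 89.6% with 1 entry per place, 90.1% and 90.7% for those widths, 90.3% without the highest cluster and 88.0% without both replicate 3 libraries.

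Leaving out 1 library at a time gave 22 falls and 0 to 1 rises over all lengths (0 without KO replicate 1), 24 and 0 in 29-32 nt, 10 to 11 falls and 11 to 12 rises in 25-28 nt, and 23 to 25 falls of the ratio. The log2 ratio of the sum was between -1.67 and -1.54, the difference of the long share between -59.6 and -58.6 points, that of all cluster counts between 1.00 and 1.11, of the lesser strand between 0.938 and 0.983, of T between -2.77 and -1.77, and the shared 5′ ends between 88.0% and 90.5%. Libraries with the same number matched in part: their deviations from the group means had r = 0.04, 0.31 and 0.41 over 269 clusters. KO replicate 2 was closest to WT replicate 2, with 0.04 and -0.31 for WT replicates 1 and 3. KO replicate 3 was closest to WT replicate 3, with -0.08 and -0.38 for WT replicates 1 and 2. KO replicate 1 was closest to WT replicate 2 (0.08). The labels do not state whether libraries with the same number were handled together. With the replicate block the counts were as without it, 22 falls and 1 rise over all lengths, 24 and 0 in 29-32 nt and 10 and 12 in 25-28 nt, and with a replicate by class term 24 ratios fell. Depth limits the 6 clusters with under 10000 counts most, whose log2 changes had SEs of up to 0.22.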
